A study of Mus musculus with 4 samples.

Results

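Short coding peaks shared by both conditions were examined in the cerebral cortex of mice, where N6-methyladenosine (m6A), the methylated form of adenosine in RNA, was mapped. A peak is a stretch where reads of antibody-captured RNA pile up. A peak belonged here when it was in the set called in sham cortex, carried the authors' class cds (coding sequence), spanned under 1000 bases of the genome, and shared at least 1 base on the same strand with a peak called in injured cortex. There were 3807 such peaks in 2546 genes, 11.2% of the 33977 peaks of the whole table and 41.8% of the 9097 coding peaks of the sham set. The peaks were thus chosen by their length, their class and the peak calls in both conditions, which are no findings about them.

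Total cortical RNA was taken after a sham procedure (2 libraries) or after repeated mild head injury (repetitive mild traumatic brain injury, rmTBI; 2 libraries labelled TBI), and fragments pulled down by an anti-m6A antibody were sequenced (MeRIP-seq). The labels give the antibody for all 4 libraries, and on that reading more or less methylation and more or less of the transcript cannot be told apart from peak counts. In bulk tissue, fewer cells of a type and less RNA per cell cannot be told apart. The sources used here do not give strain, age, sex, injury protocol, time after injury or whether each library came from its own mouse, so p-values cover the spread between 2 libraries a group and that spread may be technical. Libraries are numbered 0 and 1 in both groups, and the labels do not say what the numbers stand for. They may be different kinds of library. Each group would then hold 1 library of each kind, its means and SDs would mix them, and the p-values would not measure replicate spread, so that values are given for each library and folds by number at the called peaks.

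As background, m6A is written during transcription by the METTL3 and METTL14 complex, mostly at adenosines in short motifs of which GGACT is the most familiar. It is enriched in long internal exons and around stop codons and 3' UTRs, and YTH-domain proteins read it to steer the decay, translation or export of the transcript. Short coding peaks lie at the resolution of the fragments captured by the antibody, whereas a peak spanning many kilobases of genome crosses introns.

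The letters under the peaks were read only where a RefSeq start-site window (250 bases before to 50 after a gene's listed start, GRCm38.p6) reached into a peak, which was so for 85 peaks and 7260 bases. Within those bases the motif GGACT, searched on the strand of the peak with the reverse complement AGTCC counted apart, occurred 14 times (1.93 per kilobase) and AGTCC 10 times (1.38 per kilobase). Of the 85 stretches, 13 (15.3%) held GGACT, beside 26.1% of all 32851 windows of 300 bases, which are longer than most of the stretches. Over all windows GGACT occurred 1.03 times per kilobase on each strand. The following 4 stretches are shown because they place the motif inside peaks of this kind. Capitals mark GGACT, all are written 5' to 3' on the strand of the gene, and a match is a description of letters, not a methylated site.
Arih1 (chr9:59486328-59486357, minus strand): gcgtcgcgccatGGACTcggacgagggcta
Dnajb1 (chr8:83608328-83608357, plus strand): ggccatgggcaaGGACTactatcagacgct
Tmem196 (chr12:119946123-119946152, plus strand): cggcagaactctGGACTgcgcctccgacac
Fancl (chr11:26387027-26387056, plus strand): cgtcaggcctgtGGACTtgtgagtgatctt
Relative to the listed start, the motif lay at position 29 in Arih1, -208 in Dnajb1, 8 in Tmem196 and -45 in Fancl. In CPM, read counts scaled to library size with TMM (trimmed mean of M-values) factors, the peak of Arih1, a ubiquitin ligase of the Ariadne family, stood at 18.7 and 25.8 in sham libraries 0 and 1 and at 23.0 and 31.3 in rmTBI libraries 0 and 1. The peak of Dnajb1, an Hsp40 co-chaperone, stood at 11.1, 12.2, 14.6 and 15.2 in the same order. The groups overlapped at Arih1 and did not at Dnajb1, where both rmTBI values were the higher ones.

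The peaks ran from 61 to 996 bases with a median of 302 (quartiles 212 and 464). Lengths were 0, 1 or 2 above a multiple of 30 in 81.7% of them (3110 peaks), against 10.3% of the shared coding peaks of 1000 bases or more, so most lengths moved in steps. Of the 3807, 3592 met 1 peak of the rmTBI set, 194 met 2, and 21 met at least 3, up to 11. The partner covered a median of 91.7% of the peak. It covered the whole of it in 1573 cases (41.3%) and under 50% in 306. Partners were longer in 2174 cases and shorter in 1429, and 426 partners spanned 1000 bases or more. No peak had both boundaries in common with its partner, while 822 had the same start and 823 the same end. Peaks with identical boundaries in both sets were not present anywhere in the rows used here, and the peak numbers reach 28022 in the sham set, so such peaks are not analysed here. The partner was classed as coding in 3571 cases, 3' UTR in 197, 5' UTR in 38 and NP_exon, a class the sources used here do not define, in 1.

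At the limit of 1000 bases, the longest peaks inside were those of Znrd1as (996 bases), Zfp318 (993) and Bsn (991), and the shortest shared coding peaks outside were those of 1700030K09Rik and Zc3h6 (1000 each) and Taf8 (1001). Zfp318 stood at 49.3 and 61.0 CPM in sham and 53.4 and 61.5 in rmTBI. Zc3h6 stood at 14.5 and 14.6 in sham and 10.7 and 16.0 in rmTBI. The groups overlapped at both peaks.

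Most genes carried 1 such peak (1801 genes), 489 carried 2, 256 at least 3 and 55 at least 5, up to 12. Among their genes, 1140 (44.8%) also held a 3' UTR peak of the sham set, 289 (11.4%) a 5' UTR peak of that set and 539 (21.2%) a shared coding peak of 1000 bases or more. RefSeq held the gene of 3778 of the 3807 peaks, 3767 of them in protein-coding genes, and 99.8% of the matched ones lay within the RefSeq span of that gene in GRCm38.p6. Along that span, which includes introns, the peak centres leaned to the 3' side, with a median position of 69.9%. The final 10% of the span held 23.0% of the peaks (866 of 3769) and the first 10% held 10.9% (409). Coding peaks of the same length found in sham only had 20.1% in the final stretch and 16.1% in the first. Shared coding peaks over 5000 bases had 7.77% and 4.40%.

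**Figure D1:**
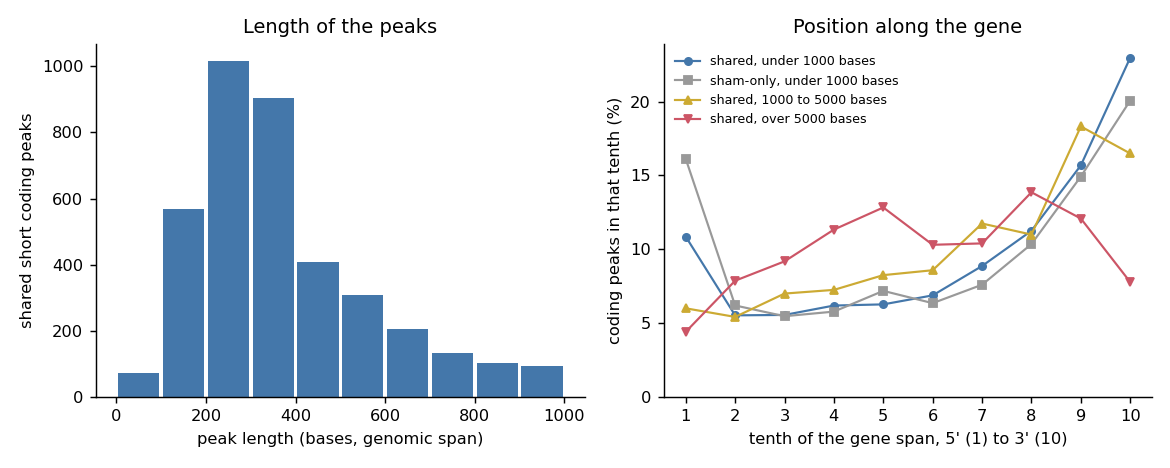
Left, number of shared short coding peaks per 100 bases of peak length (genomic span). Right, percentage of coding peaks in each of 10 equal parts of the gene span from 5' (1) to 3' (10) in 4 kinds of coding peak. The shared short peaks reach 23.0% in the last part and 10.9% in the first, and the peaks over 5000 bases 7.77% and 4.40%.

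The peaks held between 7.62% and 8.61% of each library's counts over all peaks, which totalled 13753600 to 26888072. The median peak had 116 and 246 counts in sham libraries 0 and 1 and 107 and 251 in rmTBI libraries 0 and 1. Their median level was 8.66 CPM, below that of shared coding peaks of 1000 to 5000 bases (28.7) and over 5000 bases (54.8). Per kilobase of peak the order turned, at 26.3 CPM per kilobase for the short peaks, 12.3 for those of 1000 to 5000 bases and 4.10 for those over 5000 bases. Length was part of the rule and spans of long peaks include introns, so this order is a description. Short coding peaks found in sham only stood at 2.60 CPM and 11.4 CPM per kilobase.

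The highest levels belonged to transcripts that are abundant in brain. The peak of mt-Nd4, a mitochondrial subunit of respiratory complex I (MT, 10525 to 11155), stood at 1338 and 1093 CPM in sham and 1049 and 936 in rmTBI. The peak assigned by the authors to mt-Atp8, an ATP synthase subunit (MT, 7926 to 8223), stood at 1123 and 850 in sham and 886 and 797 in rmTBI. The rmTBI partner covered 47.7% of the mt-Nd4 peak and 14.8% of the mt-Atp8 peak. At mt-Nd4 both rmTBI values lay below both sham values, and at mt-Atp8 the groups overlapped. Hsp90aa1, a stress-inducible chaperone (chromosome 12, 110692264 to 110692809), stood at 813 and 602 in sham and 781 and 547 in rmTBI. Apoe, the main lipid carrier of the brain, stood at 755 and 575 in sham and 760 and 551 in rmTBI (log2 fold -0.02, SE 0.24). In both genes library 0 was above library 1 in each group, and the groups overlapped. The peak of mt-Cytb, the cytochrome b of complex III, stood at 713 and 602 in sham and 617 and 542 in rmTBI, with overlapping groups. Tro, which encodes trophinin of the MAGE family, stood at 542, 662, 582 and 642, and Trim44, a tripartite-motif protein, at 449, 609, 459 and 626, in the order sham 0, sham 1, rmTBI 0 and rmTBI 1. Sv2b, a synaptic vesicle glycoprotein (chromosome 7, 75206116 to 75206804), stood at 347 and 374 in sham and 445 and 507 in rmTBI. Its groups did not overlap, and its log2 fold of 0.40 (SE 0.20) did not pass the test (adjusted p = 1 in edgeR).

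For injured against sham cortex, each peak was tested in edgeR over the whole table with Benjamini-Hochberg adjustment, and a peak was called when its adjusted p was under 0.05. Counts of called peaks read as a description here, since the rule required a peak in both conditions. Of the 3807 peaks, 3795 passed the filter on low counts, and 12 did not. Peaks at Plekhg1 and Synpo2 fell, so 2 peaks were called lower and 0 higher, where over all 33415 tested peaks 0.0868% were called lower and 0% higher. Without adjustment, 72 short coding peaks were lower and 33 higher at p under 0.05, beside 2.11% and 0.73% of all tested peaks. Both rmTBI libraries lay above both sham libraries in 556 peaks (14.7%) and below them in 467 (12.3%), and over all tested peaks the shares were 12.3% and 12.3%.

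Synpo2 encodes an actin-binding protein of the synaptopodin family. Its peak of 601 bases lay in coding sequence on chromosome 3 (123114027 to 123114627, minus strand). It stood at 98.2 and 133 CPM in sham (116 ± 24.5, SD, n = 2) and at 10.01 and 16.8 in rmTBI (13.4 ± 4.78, SD, n = 2). Both rmTBI values lay far below both sham values, and the log2 fold was -3.10 (SE 0.34, adjusted p = 0.0437 in edgeR). By library number it was -3.28 for number 0 and -2.98 for number 1.

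The called peak of Plekhg1 spanned 571 bases of coding sequence (chromosome 10, 3957555 to 3958125, plus strand). It stood at 51.3 and 60.9 CPM in sham (56.1 ± 6.81, SD, n = 2) and at 5.76 and 8.60 in rmTBI (7.18 ± 2.01, SD, n = 2). The log2 fold was -2.95 (SE 0.31, adjusted p = 0.0437 in edgeR), with -3.13 within number 0 and -2.81 within number 1. The gene held 2 more such peaks, which were not called. One stood at 8.48 and 9.14 in sham and 0.303 and 1.15 in rmTBI, and the other at 27.4 and 62.5 in sham and 3.41 and 9.39 in rmTBI. At all 3 Plekhg1 peaks both rmTBI values were below both sham values. Scaling by library size alone, or requiring 10 counts or more in all 4 libraries, left both genes uncalled, with adjusted p = 0.102 and 0.0867 for Synpo2 in edgeR. Without a block and with all 4 libraries, the other alternatives for Synpo2 ran from 1.41e-14 in DESeq2 to 0.0360 in edgeR with no filter.

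The next 6 genes by p were lower in rmTBI without passing the test. Ntng1 encodes netrin-G1, a membrane-anchored axonal protein. Its peak (chromosome 3, 109934603 to 109935113) stood at 15.9 and 17.5 CPM in sham and 3.94 and 4.25 in rmTBI (log2 fold -2.03, SE 0.26, adjusted p = 0.0683 in edgeR). Clic6, a chloride intracellular channel family gene, stood at 23.7 and 26.6 in sham and 6.60 and 7.16 in rmTBI (-1.87, SE 0.26). Prox1, a homeobox transcription factor, stood at 32.7 and 27.2 in sham and 8.95 and 7.84 in rmTBI (-1.84, SE 0.26). Gjc1 is the gap junction gene for connexin 45, and its peak stood at 11.6 and 13.4 in sham and 3.11 and 4.25 in rmTBI (-1.75, SE 0.29). Rgs3, a regulator of G-protein signalling, stood at 13.7 and 15.1 in sham and 3.03 and 4.86 in rmTBI (-1.84, SE 0.31), and Amotl1, a cell-junction protein related to angiomotin, at 29.4 and 27.6 in sham and 10.5 and 9.93 in rmTBI (-1.48, SE 0.25). In all 6 the groups were separate, but picking genes by small p favours separate groups, here and on the higher side below. DESeq2 called 13 of the short coding peaks, all lower. Over the whole table it called 138 of the 32659 peaks with an adjusted p there (0.423%), counting either direction. The 13 were the 3 Plekhg1 peaks, 2 at Prox1, and 1 each at Synpo2, Ntng1, Clic6, Gjc1, Rgs3, Amotl1, Nefh and Kl. With any single library left out of the edgeR fit, the log2 fold at Synpo2 ran from -3.53 to -2.80. At the leading Plekhg1 peak it ran from -3.28 to -2.72. Cdr2 stood at 8.98 and 13.2 CPM in sham and 3.34 and 6.37 in rmTBI. Its log2 fold was -1.74 without rmTBI library 1 and -0.82 without rmTBI library 0. Carns1, the carnosine synthase gene, stood at 3.07 and 4.75 in sham and 0.758 and 2.91 in rmTBI. Its log2 fold was -2.38 without rmTBI library 1 and -0.46 without rmTBI library 0.

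On the higher side 0 peaks were called in edgeR with the group alone in the model or in DESeq2. Hs3st2, a heparan sulfate sulfotransferase, led by p with 3.49 and 4.43 CPM in sham and 9.02 and 8.27 in rmTBI (log2 fold 1.11, SE 0.28, adjusted p = 0.632 in edgeR). Elfn1, a postsynaptic leucine-rich repeat protein, stood at 2.35 and 2.60 in sham and 4.70 and 5.04 in rmTBI. Igfn1, an immunoglobulin-like and fibronectin domain gene, stood at 5.20 and 5.27 in sham and 10.1 and 8.78 in rmTBI. Their groups did not overlap, and neither passed the test (adjusted p = 1 in edgeR for each). The same held for Fam135b (3.14 and 4.83 against 7.43 and 7.84), the proliferation marker Mki67 (0.998 and 1.98 against 2.80 and 5.29), the macrophage pore protein gene Mpeg1 (1.78 and 2.60 against 4.62 and 4.25), Ccdc3 (7.91 and 5.999 against 12.9 and 11.3) and the protease inhibitor Serpina3n (2.00 and 3.804 against 5.46 and 6.84). The Mki67 peak rested on 14, 54, 37 and 147 counts. Ccdc3 met an rmTBI peak 87752 bases long, against 182 bases for its own peak.

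**Figure D2:**
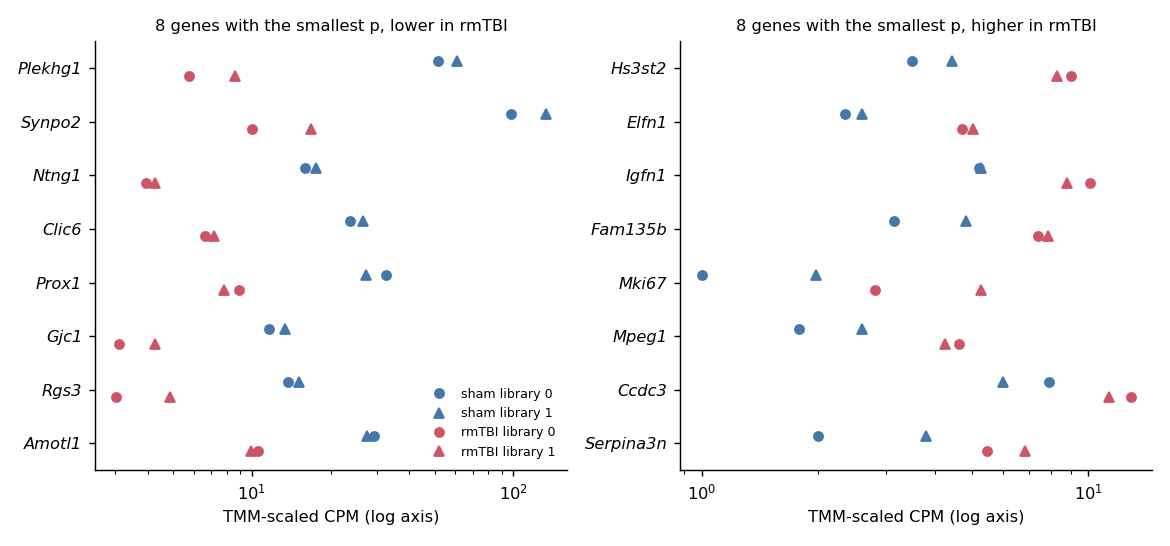
TMM-scaled CPM (log axis) in each of the 4 libraries at the 8 genes with the smallest p lower in rmTBI (left) and higher in rmTBI (right), 1 short coding peak per gene. Blue points are sham and red points rmTBI, with circles for library 0 and triangles for library 1. The groups are separate at all 16 peaks, which picking by small p favours, and only Plekhg1 and Synpo2 were called.

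**Figure D3:**
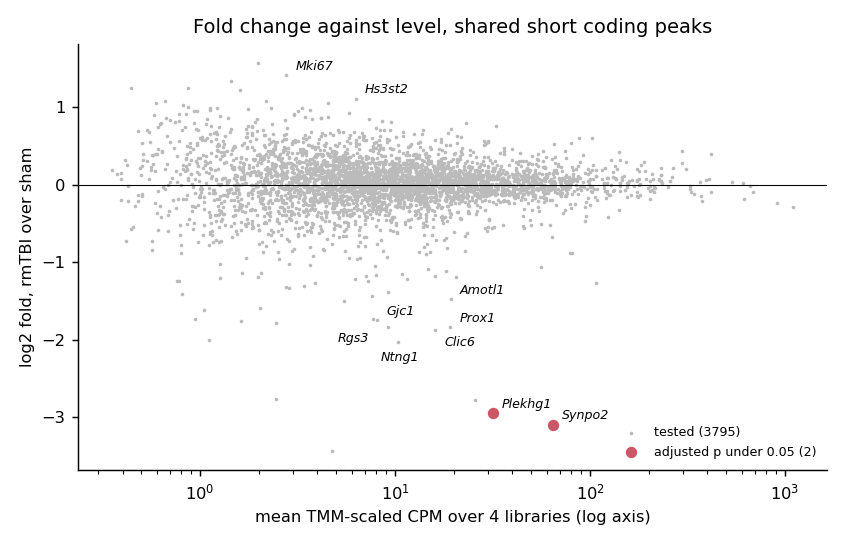
Log2 fold, rmTBI over sham, against mean TMM-scaled CPM (log axis) for the 3795 tested short coding peaks. Red points are the 2 called peaks, Plekhg1 and Synpo2, and the spread of the grey points narrows from an SD of 0.46 in the 952 peaks of lowest level to 0.26 in the 952 of highest level.

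In the median over all short coding peaks the groups differed little. Single peaks of other genes, such as Zfhx3 and Nefh, lay further off. The median log2 fold was 0.03 (quartiles -0.13 and 0.19), beside 0.02 over all tested peaks, and 2101 peaks were above 0 and 1694 below, beside 52.6% above 0 over all tested peaks. The sign of so small a median depended on the libraries: it was -0.05 without sham library 0, -0.07 without rmTBI library 1, 0.13 without sham library 1 and 0.09 without rmTBI library 0. The SD of the log2 folds was 0.46 in the 952 peaks of lowest level (up to 3.81 CPM) and 0.34, 0.29 and 0.26 in the next 3 classes of equal size, with median SEs of 0.46, 0.29, 0.27 and 0.26. The median SE of a class was close to the spread of its folds, so that folds of the usual size were not detectable with 2 libraries a group.

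Marker genes of neighbouring tissues had lower values beside these peaks. Over the peaks of the sham set, markers of thalamus summed to 884 and 973 CPM in sham and 189 and 204 in rmTBI, with 23 of 23 peaks lower (10 of 11 marker genes had a peak, Prkcd none). Ntng1 is on that list. Markers of choroid plexus and ependyma summed to 51.0 and 56.4 in sham and 14.1 and 15.6 in rmTBI, with 9 of 9 peaks lower. The list includes Clic6 and Kl, and its defining genes Ttr, Foxj1, Folr1, Kcnj13, Otx2 and Slc4a5 had no peak. Striatal markers summed to 1363 and 1349 in sham and 726 and 700.2 in rmTBI (19 of 19 peaks lower), and cortical excitatory neuron markers to 1365 and 1363 in sham and 1789 and 1706 in rmTBI (26 of 36 peaks higher). The marker sums did not overlap between the groups for any of these 4 lists. Their part in the lower peaks at Synpo2, Plekhg1, Ntng1, Clic6, Prox1, Gjc1, Rgs3 and Amotl1 was not tested.

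Genes were grouped by pathway or family in 10 lists. None held a peak called in edgeR with the group alone in the model, against the 0.0868% lower and 0% higher of all tested peaks. Without adjustment, each list had 0 to 3 peaks higher and 0 to 4 lower at p under 0.05. Over all tested peaks 52.6% were above 0, and 12.3% lay above and 12.3% below without overlap, the shares beside which the counts of each list are to be read. Some genes hold several peaks of a list, so these counts are of peaks and not of separate genes. DESeq2 called 1 peak each in the guidance and cytoskeleton lists, Ntng1 and Nefh, beside 0.423% of all peaks with an adjusted p there. With any 1 library left out of edgeR, the log2 fold of Ntng1 ran from -2.11 to -1.95. Myelin and oligodendrocyte genes had all 7 tested peaks below 0, 6 of them with separate groups and 3 at p under 0.05 without adjustment, with a median log2 fold of -0.66 beside 0.02 for all peaks. The 7 peaks belong to 5 genes, with 2 each at Bcas1 and Gpr37. Bcas1, expressed in myelinating oligodendrocytes, stood at 123 and 87.5 CPM in sham and 67.7 and 46.7 in rmTBI (-0.88, SE 0.30), Gpr37, an oligodendrocyte receptor, at 31.9 and 24.2 in sham and 21.0 and 14.5 in rmTBI (-0.66, SE 0.30), and Sox10, the lineage transcription factor, at 7.06 and 8.81 in sham and 5.84 and 7.45 in rmTBI. Groups were separate at Bcas1 and Gpr37 and overlapped at Sox10. The summed oligodendrocyte markers were 589 and 617 in sham and 424 and 419 in rmTBI, with 10 of 10 peaks lower, and their part in these values was not tested.

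Genes of the neuronal cytoskeleton and amyloid pathway, several of them injury markers, had 20 of 27 tested peaks below 0 and a median of -0.11, with 9 peaks below without overlap and 0 above, beside 12.3% each way over all tested peaks. The 27 peaks belong to 12 genes, with 8 at Ank3 and 5 at Map4. Of the 9 below without overlap, 2 were at Ank3 and 3 at Map4. Nefh, the heavy neurofilament subunit, lay lowest at 135 and 167 CPM in sham and 51.2 and 74.1 in rmTBI (-1.27, SE 0.28, adjusted p = 0.425 in edgeR). Of the 3 most abundant members, Ank2, an ankyrin adaptor, stood at 294 and 213 in sham and 297 and 229 in rmTBI, and Sptan1, a spectrin, at 239 and 168 in sham and 263 and 166 in rmTBI, with overlapping groups. Sptbn1, also a spectrin, stood at 223 and 211 in sham and 189 and 193 in rmTBI (-0.18, SE 0.21). Voltage-gated and potassium channel genes had 23 of 37 peaks below 0 and a median of -0.18 (-0.04 without rmTBI library 0). Of the 37, 14 lay below and 8 above without overlap, beside 12.3% each way over all tested peaks. Their log2 folds ran from -1.21 to 0.58. Within that list Cacna1e, an R-type calcium channel subunit, stood at 109 and 132 in sham and 141 and 182 in rmTBI (0.42, SE 0.25), Cacna1b, of the N-type channel, at 66.4, 76.8, 68.8 and 81.0, and Scn2a, a sodium channel, at 65.1, 47.5, 66.9 and 50.1, in the order sham 0, sham 1, rmTBI 0, rmTBI 1. The groups were separate at Cacna1e and overlapped at the other two.

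Synapse genes leaned the other way, with 50 of 61 tested peaks above 0, 25 above without overlap and 2 below (12.3% each way over all tested peaks), and a median of 0.15, and of 0.16 to 0.22 with any 1 library left out. Of these 61 peaks, 12 belong to Pclo and 9 to Bsn, large scaffolds of the presynaptic active zone, so they are not separate genes. The leading Pclo peak stood at 209.6 and 231 CPM in sham and 226 and 232 in rmTBI, and the leading Bsn peak at 80.4 and 79.5 in sham and 93.3 and 95.4 in rmTBI. Grin2b, an NMDA receptor subunit, stood at 156 and 199.8 in sham and 152 and 203 in rmTBI. Cortical transcription factor genes had 18 of 23 peaks above 0, 10 above without overlap and 1 below (12.3% each way over all tested peaks), and a median of 0.29, which lay at 0.06 without sham library 0 and 0.08 without rmTBI library 1. In that list Pou3f3, an upper-layer POU factor, stood at 30.8 and 44.2 in sham and 37.9 and 54.1 in rmTBI, Zbtb18 at 83.9 and 83.7 in sham and 88.9 and 87.3 in rmTBI, and Bcl11b, a deep-layer factor, at 36.5 and 62.9 in sham and 39.0 and 59.3 in rmTBI. The groups were separate at Zbtb18 and overlapped at Pou3f3 and Bcl11b. The summed cortical excitatory neuron markers were 1365 and 1363 CPM in sham and 1789 and 1706 in rmTBI. Among them Bcl11b, Cux2 and Neurod2 have peaks in this list too, and the part of the markers in these values was not tested. No peak of either list was called in edgeR with the group alone.

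Immediate early genes had 8 of 9 tested peaks above 0 and a median of 0.15, with 1 peak above without overlap and 0 below, beside 12.3% each way over all tested peaks. Arc, which controls AMPA receptor trafficking, stood at 27.1 and 20.2 CPM in sham and 36.6 and 31.3 in rmTBI (0.53, SE 0.27), Jund at 17.1 and 11.9 in sham and 13.1 and 10.04 in rmTBI, and Bdnf, the neurotrophin, at 5.13 and 8.60 in sham and 6.22 and 9.10 in rmTBI. Chromatin regulators had 73 of 106 peaks above 0 (median 0.07), m6A writers, erasers and readers 10 of 18 (0.05), leucine-rich repeat adhesion genes 22 of 36 (0.08) and axon guidance genes 9 of 16 (0.04). These last 5 lists turned sign when a library was left out: without rmTBI library 1 the medians were -0.05 for immediate early genes, -0.00 for chromatin, -0.11 for m6A, -0.17 for adhesion and -0.27 for guidance genes. Chromatin was led by Smarca2 (232 and 263 CPM in sham, 284 and 291 in rmTBI), the catalytic ATPase of BAF remodelling complexes, with separate groups. Kat6a, a histone acetyltransferase, stood at 209 and 296 in sham and 221 and 300.4 in rmTBI, and Srcap, a remodelling ATPase, at 161 and 151 in sham and 161 and 156 in rmTBI. The nuclear m6A reader Ythdc1 stood at 118 and 136 in sham and 136 and 136 in rmTBI, and Zc3h13, of the writer complex, at 67.7 and 63.4 in sham and 73.5 and 60.2 in rmTBI. Prrc2a, of the same list, stood at 45.6 and 59.99 in sham and 54.5 and 69.6 in rmTBI. Among guidance receptors Epha5 stood at 34.4 and 72.8 in sham and 53.0 and 102 in rmTBI, and the synaptic adhesion gene Slitrk1 at 58.3 and 129.7 in sham and 66.6 and 157 in rmTBI, so that the spread between numbered libraries was wider than the difference between groups. Nrp2, a semaphorin co-receptor, stood at 35.5 and 60.4 in sham and 39.6 and 75.6 in rmTBI, and the adhesion gene Flrt2 at 15.8 and 25.4 in sham and 19.8 and 30.1 in rmTBI. Lower values were seen in Sema6a, a transmembrane semaphorin (21.2 and 32.8 in sham, 15.9 and 26.0 in rmTBI, log2 fold -0.36, SE 0.34), and in Slitrk3 (19.2 and 27.7 in sham, 13.1 and 23.6 in rmTBI, -0.35, SE 0.35). The groups overlapped at these 4 genes.

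Peaks of 1 gene tended to share their fold. In the 717 genes with several tested short coding peaks that did not overlap one another (1907 peaks), the SD of the log2 fold was 0.34 over all peaks and 0.21 within genes. Zfhx3, a large zinc-finger homeobox factor, held 6 peaks with log2 folds from -1.62 to -0.95, and at all 6 both rmTBI values lay below both sham values. Its name was taken after its values were seen. Among the 5 genes with the most peaks, Dst, a spectraplakin linking actin and microtubules, had 12 with log2 folds from -0.25 to -0.05, 5 of them below without overlap. Pclo had 12 from -0.09 to 0.22, and Ahnak, a very large scaffold protein, had 10 from -0.09 to 0.53. Bsn had 9 from 0.23 to 0.56, 5 of them above without overlap. The counts without overlap for Zfhx3, Dst and Bsn stand beside 12.3% above and 12.3% below over all tested peaks. Peaks of 1 gene share its transcript and the same libraries, so they are not separate observations. The 12 peaks named Pcdha1, the first of the clustered alpha protocadherins, all overlapped one another on chromosome 18 near 58.8 CPM and are 1 region counted several times. The folds within these genes were far smaller than the -3.10 of Synpo2.

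The same held between a gene's coding and 3' UTR peaks. In 861 genes with a tested 3' UTR peak that was also shared by both conditions, the highest short coding peak and the highest 3' UTR peak had log2 folds of the same sign in 604 (70.2%), with a median difference of -0.01 and an SD of 0.28. Across these genes, which share libraries and are not independent replicates, Pearson r was 0.70 and Spearman rho 0.53. Taken by library number, the share was 63.4% for number 0 and 68.5% for number 1. The pair lay within 0.5 log2 of each other in 797 genes (92.6%). Of the 15 genes at 1 log2 or more in either peak, 14 had the same sign in both. The exception was Mtus1, at -1.18 in its coding peak and 0.08 in its 3' UTR peak.

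Most pairs with large lower folds kept close to each other. At Synpo2 the coding peak had -3.10 and the 3' UTR peak -3.42, where the UTR peak stood at 49.3 and 91.0 CPM in sham and 5.53 and 7.48 in rmTBI. Plekhg1 had -2.95 and -2.65, with a UTR peak at 15.5 and 13.8 in sham and 2.12 and 2.48 in rmTBI. Ntng1 had -2.03 and -2.14, Gjc1 -1.75 and -1.58, Amotl1 -1.48 and -1.70, and Nefh -1.27 and -1.20. Rgs3 differed, with -1.84 in the coding peak and -0.54 in the UTR peak, which stood at only 3.35 and 4.35 in sham and 1.90 and 3.31 in rmTBI. On the higher side, Elfn1 had 0.97 in the coding peak and 0.16 in the UTR peak. Mpeg1 had 0.71 at its highest coding peak and 0.01 at its UTR peak, which stood at a mean of only 0.98 CPM. The difference between the peaks of a gene was not tested.

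**Figure D4:**
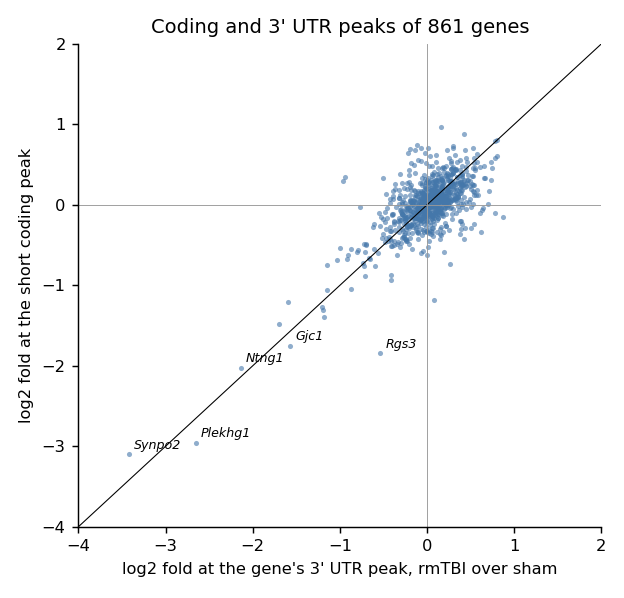
Log2 fold, rmTBI over sham, at the highest short coding peak (vertical) against that at the highest shared 3' UTR peak (horizontal) of the same gene, for 861 genes, with the line of equality. Most points lie near the origin, Synpo2, Plekhg1, Ntng1 and Gjc1 lie near the line far below 0, and Rgs3 is at -1.84 in the coding peak and -0.54 in the UTR peak.

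In the median over these peaks, the numbered libraries differed more than the groups did. The log2 ratio of library 1 over library 0 (prior count of 2) had a median of 0.18 in sham and 0.20 in rmTBI over the short coding peaks, and was above 0 in both groups for 55.0% of them. Over all peaks the medians were 0.02 and 0.05. Shared coding peaks of 1000 to 5000 bases stood at -0.17 and -0.19, those over 5000 bases at -0.34 and -0.40, and shared 3' UTR peaks at 0.24 and 0.25. Short coding peaks found in sham only had 0.24 in sham and -0.28 in rmTBI, so that the ratio moved with which group a peak was called in, and it is given as a description with no test. In the short coding peaks it was smaller at higher levels, with medians of 0.53, 0.17, 0.08 and 0.01 from the lowest to the highest of the 4 level classes. Scaled by library size alone, the median was 0.30.

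Single peaks lay far from these medians in both groups alike. Tet3, an enzyme that oxidises methylated cytosine in DNA (chromosome 6, 83368430 to 83368881), stood at 14.1 and 38.1 CPM in sham libraries 0 and 1 and at 18.2 and 48.7 in rmTBI libraries 0 and 1. The peak of Ppargc1a, the coactivator of mitochondrial biogenesis, stood at 3.71 and 10.2 in sham and 3.18 and 9.64 in rmTBI. Library 1 was the higher by more than 1 log2 in each group at both genes, and also at Zfp407 (1.68 and 1.64) and Pabpc5 (1.33 and 1.96), while Hipk3 had 0.99 in sham and 1.98 in rmTBI. At the other end Dnaaf2, a dynein assembly factor (chromosome 12, 69198278 to 69198429), stood at 14.7 and 3.84 in sham and 16.4 and 4.605 in rmTBI, and Nop56, a core protein of box C/D snoRNPs, at 80.5 and 44.5 in sham and 79.4 and 44.5 in rmTBI. Mgat2 (-0.87 and -1.09), BC100451 (-0.82 and -1.05) and Fam196a (-1.22 and -0.78) were low in library 1 in both groups too. Across the short coding peaks the ratio in sham followed that in rmTBI with a Pearson r of 0.65, over peaks that share these 4 libraries. A mean over libraries 0 and 1 therefore pooled values that at such peaks differed several-fold within a group.

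**Figure D5:**
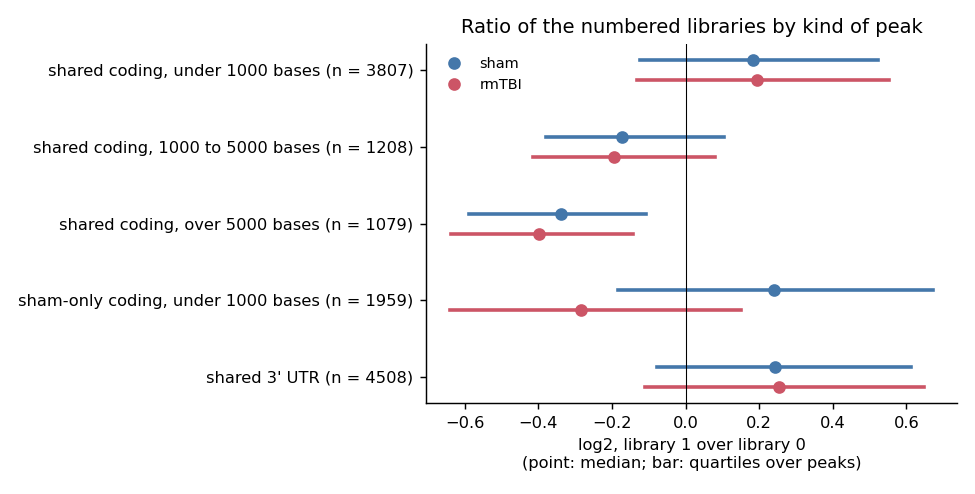
Log2 ratio of library 1 over library 0 within sham (blue) and rmTBI (red), with points for medians and bars for the quartiles over peaks, in 5 kinds of peak. The short shared coding peaks have 0.18 and 0.20, the shared coding peaks over 5000 bases -0.34 and -0.40, and the short peaks found in sham only 0.24 and -0.28.

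Within a gene the ratio agreed less than the fold did. Its SD was 0.45 over the 1907 peaks of the 717 genes and 0.37 within genes. In the 861 genes with a 3' UTR pair its median was 0.17 at the coding peak and 0.32 at the UTR peak, and it was higher at the UTR peak in 514 genes (59.7%), with a Pearson r of 0.15 across genes. Grin2b, for example, had 0.39 at its coding peak and -0.63 at its 3' UTR peak, which stood at 219 and 144 CPM in sham and 231 and 147 in rmTBI. At Scn2a the order was the other way, with -0.43 at the coding peak and 1.05 at the 3' UTR peak.

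The authors' deposited table gives its own log2 fold per peak. Over these peaks it tracked the rmTBI ratio of library 1 over library 0 divided by the sham ratio (Pearson r = 0.99 across peaks, computed from the counts with 0.5 added) and not the fold of rmTBI over sham (r = -0.25), so its values are reported apart. Such a contrast sets library 1 against library 0 as if they were of different kinds, and the sources used here do not settle whether they are, which bears on every mean and edgeR p-value given here. In the authors' deposited table a single peak of the 3807 (1) had an adjusted p under 0.05, beside 0.00883% of all peaks. That peak was Synpo2, with a log2 fold of 0.35 and an adjusted p of 0.00602 in the authors' deposited table. The authors' deposited lists held 16 of the short coding peaks as higher and 10 as lower, beside 0.815% and 0.43% of all peaks.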

How the data were processed

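The authors deposited whole-number counts per peak for each library, not normalized, with a class, a length in genomic bases, and the log2 fold, p-value and FDR of an unnamed test per peak, per the file headers. Per the file headers, peaks were called per condition and stacked. STAR, DESeq2 and GRCm39 appear in the submitters' processing notes, without versions or roles. The sources used here do not name the peak caller or say whether counting used strand, so overlapping and antisense genes and near-identical paralogs are uncertain. Deposited coordinates were taken as GRCm38, since 98.3% of matched peaks lay in the RefSeq span of their gene in GRCm38.p6.

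Groups came from the labels. All 33977 peaks went into edgeR 4.0.16 under R 4.3.3 (TMM, filterByExpr, quasi-likelihood F-test, group only, Benjamini-Hochberg over 33415 peaks). The SE is the size of the log2 fold divided by the square root of F. CPM is TMM-scaled. DESeq2 1.42.0, library-size scaling, 2 other count filters, the library number as a block, the sham set alone, and each library left out were alternatives. Depth was 13753600 to 26888072 counts per library. The fit was tested on data simulated from these counts.

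The peaks and gene lists were chosen with earlier results of these data known. Named genes were the 8 highest by CPM, the 8 smallest p in each direction, the 5 genes with most peaks, the 5 highest and lowest ratios of the numbered libraries at a mean of at least 5 CPM, the 3 highest per list, the 3 on each side of 1000 bases, peaks called in the authors' table, and peaks called under an alternative. Unnamed gene models were counted and not named. Others were chosen after their values were seen: Arih1, Dnajb1, Tmem196 and Fancl for their sequence, Zfhx3 and Mtus1 for their values. Sequences are RefSeq GRCm38.p6 letters.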

Additional observations from a re-analysis of the deposited data

Results flagged for a closer look

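At Synpo2 the ratio of library 1 over library 0 differed between the groups in the authors' deposited table, where its log2 value was 0.35 with an adjusted p of 0.00602. In the counts, the log2 ratio was 0.44 in sham and 0.74 in rmTBI at that peak, which stood at 98.2 and 133 CPM in sham and 10.01 and 16.8 in rmTBI.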

How the results depend on the processing

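The 2 calls became 13 with DESeq2, 0 with library-size scaling (edgeR, 104 short coding peaks at p under 0.05 without adjustment), 0 with at least 10 counts in every library (edgeR, 100 at p under 0.05), and 8 to 12 with 1 library left out. The sham set alone gave 3 and no filter 2. With the library number as a replicate block, edgeR called 362 short coding peaks (186 of them higher), beside 10.6% of all tested peaks. That fit estimates 3 terms from 4 libraries, so little is left to measure spread. Synpo2 had an adjusted p of 2.39e-289 there in edgeR, against 0.0437 with the group alone. The calls under the block are therefore not read as changes. In the lists the block called 16 of 61 synapse, 10 of 23 cortical factor, 13 of 37 channel, 10 of 27 cytoskeleton, 4 of 7 myelin, 4 of 16 guidance, 4 of 36 adhesion, 6 of 106 chromatin, 2 of 9 immediate early and 1 of 18 m6A peaks. The labels do not say that the numbers pair the libraries, and same-numbered libraries deviated together with a correlation of 0.48 over all tested peaks. The median log2 fold of 0.03 was 0.0224 with library-size scaling, 0.0252 with at least 10 counts, 0.0469 in the sham set alone, and -0.0749 to 0.128 with 1 library left out. The median log2 ratio of library 1 over library 0, 0.20 in the mean of both groups, was 0.298 with library-size scaling and 0.183 in sham alone. The 70.2% of 3' UTR pairs with the same sign was 63.4% within the libraries numbered 0. The count of 3807 peaks became 3501 when at least 50% of the sham peak, and 2822 when 50% of both peaks, had to overlap, 3580 with a coding partner and 2968 under 500 bases. On counts simulated for rmTBI against sham over 33026 peaks, 74 of 100 peaks changed by 2 log2 and 94 of 100 changed by 4 log2 were recovered, with 12 false calls. Smaller folds, other depths and a shared deviation of same-numbered libraries were not simulated, so the share recovered need not hold for the real data. With a library left out, the lone one of its group is assumed to vary like the other group.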

Other observations

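Short coding peaks at other marker genes were examined for cell types that the results above do not describe, and these genes were chosen from the marker lists after values were seen. Dlx1, an interneuron transcription factor, held 2 overlapping peaks, and the higher stood at 1.85 and 2.34 CPM in sham and 3.79 and 4.14 in rmTBI (log2 fold 0.91, SE 0.33). Slc32a1, the vesicular GABA transporter, stood at 12.3 and 10.6 in sham and 13.7 and 10.4 in rmTBI. Aif1, the microglial gene for IBA1, stood at 2.50 and 2.85 in sham and 4.25 and 5.36 in rmTBI (0.85, SE 0.31). Groups were separate at Dlx1 and Aif1 and overlapped at Slc32a1, and no peak of the 3 genes was called in edgeR. Mog, a myelin surface protein, stood at 9.13 and 7.32 in sham and 4.93 and 4.53 in rmTBI (-0.79, SE 0.27), with separate groups and no call in edgeR.

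Interneuron markers summed to 161 and 198 CPM in sham and 226 and 287 in rmTBI, with 8 of 9 peaks above 0. Microglial markers summed to 41.4 and 51.8 in sham and 52.9 and 56.3 in rmTBI, with 6 of 8 peaks above 0. Astrocyte markers summed to 1439 and 1482 in sham and 1553 and 1568 in rmTBI, with 8 of 20 peaks above 0. Endothelial markers summed to 70.7 and 94.9 in sham and 68.8 and 82.9 in rmTBI, with 3 of 8 above 0, and their sums overlapped between the groups. Of 9 blood markers none had a peak. Klotho (Kl), secreted by choroid plexus, had a peak at 3.28 and 5.38 in sham and 0.303 and 0.863 in rmTBI, resting on 4 and 24 counts in the rmTBI libraries.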
